A study of Mus musculus with 8 samples.

Results

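The ribosomal protein genes of the mouse were followed through maps of H3K27ac, acetylation of lysine 27 of histone H3, in embryonic stem cells. Members were the protein-coding genes of the RefSeq mm10 gene table whose symbols start with Rpl or Rps and a digit, together with Rplp0, Rplp1, Rplp2 and Rpsa. Rps6k kinases, symbols ending in l, symbols holding -ps, and Rps19bp1 were left out, while Rpl7l1 and Rpl22l1, which end in a digit, stayed in. This gave 82 genes of 21887. By symbol alone, 46 were placed with the large subunit, 33 with the small subunit and 3 with the stalk. Among the 82 were 5 whose symbols mark a retrogene or a like gene, namely Rpl37rt, Rps27rt, Rps23rg1, Rpl7l1 and Rpl22l1. Whether these 5 encode proteins of the ribosome was not examined. The rule uses gene symbols and no measured value.

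The cells were E14tg2a, an embryonic stem cell line of the 129SV background, and all of them carried a stably expressed cRAF-ErT2 cassette, which joins the kinase RAF to the hormone-binding part of the oestrogen receptor and is intended to switch on ERK when 4-hydroxytamoxifen (4OHT) is given. All were grown with serum, LIF and 2 uM Chir99021, a GSK3 inhibitor, and were moved 24 h before treatment to serum, LIF and 250 nM PD173074, an FGF receptor inhibitor. Untreated cells of clones a and b were compared with cells of clones a and b given 250 nM 4OHT for 2 h. The sources used here name neither the promoter of the cassette nor a vehicle control, and do not say how the clones were derived. The spread in fits without the clone thus comes from these 2 clones. With the clone as a replicate block it comes from how far the change after 4OHT differs between the 2 clones. In both fits limma moderates the spread of each gene with a variance estimated over all genes fitted. A p-value therefore does not measure the spread of the 2 clones at that gene alone. A change brought by 4OHT itself and a change brought by the RAF fusion cannot be told apart.

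Ribosomal proteins, with ribosomal RNA, make up the large and small subunits of the ribosome, and a growing cell transcribes their genes at high and matched rates. Their mRNAs mostly begin with a run of pyrimidines at the very start of the transcript, the 5' terminal oligopyrimidine (TOP) tract, through which their translation follows growth signals. H3K27ac is laid down on nucleosomes beside active promoters and enhancers, while the nucleosome-poor stretch at the promoter itself holds little of it.

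The 4 deposited lists held between 59170 and 63276 peaks and covered between 50.4 and 53.1 Mb. The files give peaks and the authors' score of each, not reads, so the depth is unknown and a missing peak does not show that the mark was absent. All 10 embryonic stem cell markers fixed for the check, Pou5f1, Sox2 and Nanog among them, had a peak within 5 kb in all 4 libraries. Of 7 fibroblast markers, 6 had no peak in any library and Col1a1 had peaks in all 4. Of 4 primitive endoderm markers none had a peak in all 4; Pdgfra had none, and Gata6, Gata4 and Sox17 had peaks of up to 1075 bp in total in 2, 2 and 1 of the libraries. Of the blood markers, Cd48 had no peak, and Ptprc was covered over 0 and 0 bp in untreated a and b and 1608 and 1923 bp in 4OHT a and b. Ptprc passed limma (adjusted p 0.0267, and 0.0047 with the clone as a replicate block). It reached the mean of 500 bp needed for the fit only through its 4OHT values, so these p-values are no independent support for a change. Its part in the results below was not tested. A peak list of many cells does not tell a mark present in more cells from a longer marked stretch in each cell.

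Starts of transcription could be placed for 62 of the 82 genes, from the RefSeq promoter table of GRCm38.p6 (mm10). The first set below shows starts with a pyrimidine run, and the capitals mark the longest run that begins with a C followed by 4 or more C or T within 10 bases of the start. Each line gives 60 bases before the annotated start and the first 20 bases of the transcript.
Rpl27a: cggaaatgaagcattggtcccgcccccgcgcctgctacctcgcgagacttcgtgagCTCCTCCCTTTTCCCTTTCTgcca
Rpl15: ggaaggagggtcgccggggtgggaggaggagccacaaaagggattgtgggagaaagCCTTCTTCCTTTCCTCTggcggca
Rpl13a: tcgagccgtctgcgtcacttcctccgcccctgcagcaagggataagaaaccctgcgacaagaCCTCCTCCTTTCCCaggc
Rplp2: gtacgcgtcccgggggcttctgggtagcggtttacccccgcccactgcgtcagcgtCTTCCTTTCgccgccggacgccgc
Rps18: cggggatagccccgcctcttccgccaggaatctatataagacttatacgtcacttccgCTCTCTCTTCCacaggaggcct
Rps15a: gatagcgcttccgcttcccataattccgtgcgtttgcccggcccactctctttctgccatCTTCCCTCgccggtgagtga
On the plus strand lie Rpl27a (chr7:109519135-109519214) and Rplp2 (chr7:141447591-141447670). On the minus strand lie Rpl15 (chr14:18270967-18271046), Rpl13a (chr7:45128726-45128805), Rps18 (chr17:33955646-33955725) and Rps15a (chr7:118116128-118116207). Such a run began within 10 bases of 39 of the 72 annotated starts of these genes (54.2%, 37 genes) and of 31.1% of the 21263 starts in the table. At 14 starts (19.4%) the annotated start base was itself a C followed by 4 or more C or T, against 2.21% of all starts. The whole run can begin further upstream at such a start, as in Rpl15, Rplp2 and Rps18 above. The annotated start can lie some bases from the true one, so a missing run says only that these letters are not there.

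Motifs of 2 further kinds recurred over the 300 bases from 250 before to 50 after each start, searched on both strands. CCGGAAG, the core bound by ETS factors, was present at 25 of 72 starts (34.7%) against 11.6% of all starts. TCGCGAGA, which was added to the search after the sequences had been read, was present at 12 starts (16.7%, 11 genes) against 1.41% of all starts. The capitals below mark either motif on either strand.
Rps6: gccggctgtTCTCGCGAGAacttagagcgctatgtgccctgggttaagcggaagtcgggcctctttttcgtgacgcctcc
Rps28: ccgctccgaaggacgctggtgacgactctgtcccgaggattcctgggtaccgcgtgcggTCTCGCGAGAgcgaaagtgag
Rpl12: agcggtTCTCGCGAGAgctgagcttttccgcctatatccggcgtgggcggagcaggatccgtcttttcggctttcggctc
Rpl26: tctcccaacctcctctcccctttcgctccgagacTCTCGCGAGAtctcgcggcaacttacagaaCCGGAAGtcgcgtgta
Rpl38: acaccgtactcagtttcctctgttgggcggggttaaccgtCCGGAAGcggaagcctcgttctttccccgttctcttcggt
Rpl11: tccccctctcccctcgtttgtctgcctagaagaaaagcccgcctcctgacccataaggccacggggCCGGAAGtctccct
Rps6 (chr4:86857348-86857427), Rps28 (chr17:33824543-33824622) and Rpl11 (chr4:136053374-136053453) lie on the minus strand. Rpl12 (chr2:32961652-32961731), Rpl26 (chr11:68901506-68901585) and Rpl38 (chr11:114668520-114668599) lie on the plus strand. ATGGCG, the core of YY1 sites, was present at 29.2% of the starts against 10.9% of all starts, and GGGCGG, bound by SP and KLF factors, at 59.7% against 46.2%. TATAAA, the TATA box, was present at 9.72% against 12.6%, and the shorter TATAA, which it contains, at 23.6% against 21.9%. TTTCC was present at 80.6% against 59.9%, and GGAA, which lies inside CCGGAAG and overlaps the reverse of TTTCC, at 98.6% against 95.7%. The median GC content was 58.2% against 56.3%, and the median number of CpG was 21 against 13 in the 300 bases. A match is a description of letters and not of a bound factor.

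Peaks of H3K27ac stood beside 81 of the 82 genes in every library. The share of all protein-coding genes with a peak within 5 kb in all 4 libraries was 59.6%. The exception was Rpl37rt (chr5:115102922-115110268), which had no peak within 5 kb in any library, and whose nearest peaks began at -8660, -8469, -8623 and -8501 bp from its annotated start in untreated a, untreated b, 4OHT a and 4OHT b. Within 1 kb, 80 genes had a peak in all 4 libraries, against 55.8% of all genes, and the second gene to drop out was Rps27rt. No member was gained, with peaks in both 4OHT libraries and in neither untreated one (1.7% of all genes were), and none was lost (0.827% of all genes). All 77 genes without a retrogene or like symbol had a peak in all 4 libraries.

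Rps27rt (chr9:114982366-114982739) is a short retrogene copy of Rps27 that lies inside the interval of Osbpl10. All its peaks within 5 kb lay between -4686 and -3000 bp from its lower end, with a peak over the lower end of Osbpl10 in each of the 4 lists and none at Rps27rt itself. The copy and its parent share the first bases of their transcripts, and the capitals mark the longest stretch common to their printed windows, 19 bases.
Rps27: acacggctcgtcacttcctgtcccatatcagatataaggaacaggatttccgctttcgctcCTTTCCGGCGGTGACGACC
Rps27rt: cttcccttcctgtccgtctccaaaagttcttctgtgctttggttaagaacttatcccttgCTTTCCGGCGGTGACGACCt
Both lie on the minus strand, Rps27 at chr3:90213629-90213708 and Rps27rt at chr9:114982720-114982799. At Rps27, a zinc finger protein of the small subunit, peaks within 1 kb covered 2429 and 2283 bp in untreated a and b and 2412 and 2339 bp in 4OHT a and b. At Rps27rt they covered 0 bp in every library.

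Peaks covered more sequence at ribosomal protein genes than at other genes with peaks. The median length covered within 5 kb was 3657 and 3465 bp in untreated a and b and 3718 and 3435 bp in 4OHT a and b. Over the 13044 genes with a peak in all 4 libraries, the medians were 1982.5, 1943.5, 2159 and 2152 bp in the same order. Ribosomal protein genes are short, with a median length of 3179 bp against 24289.5 bp for the genes with a peak in all 4. As a percentage of the window (the gene and 5 kb on either side), the median covered was 26.6% for members and 5.72% for those genes. Short genes have short windows, so the gap is wider as a percentage than in bp. These are descriptions, with no test, and windows of neighbours share peaks: 62 of the 82 genes had another protein-coding gene within 5 kb. The 20 genes without such a neighbour, Rpl37rt not being among them, had a median mean covered length of 3232 bp, the 36 with 1 neighbour 3678 bp, and the 25 with peaks and 2 or more neighbours 4007.5 bp. Counted only within 1 kb, those medians were 2746, 2894 and 2789 bp.

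**Figure D1:**
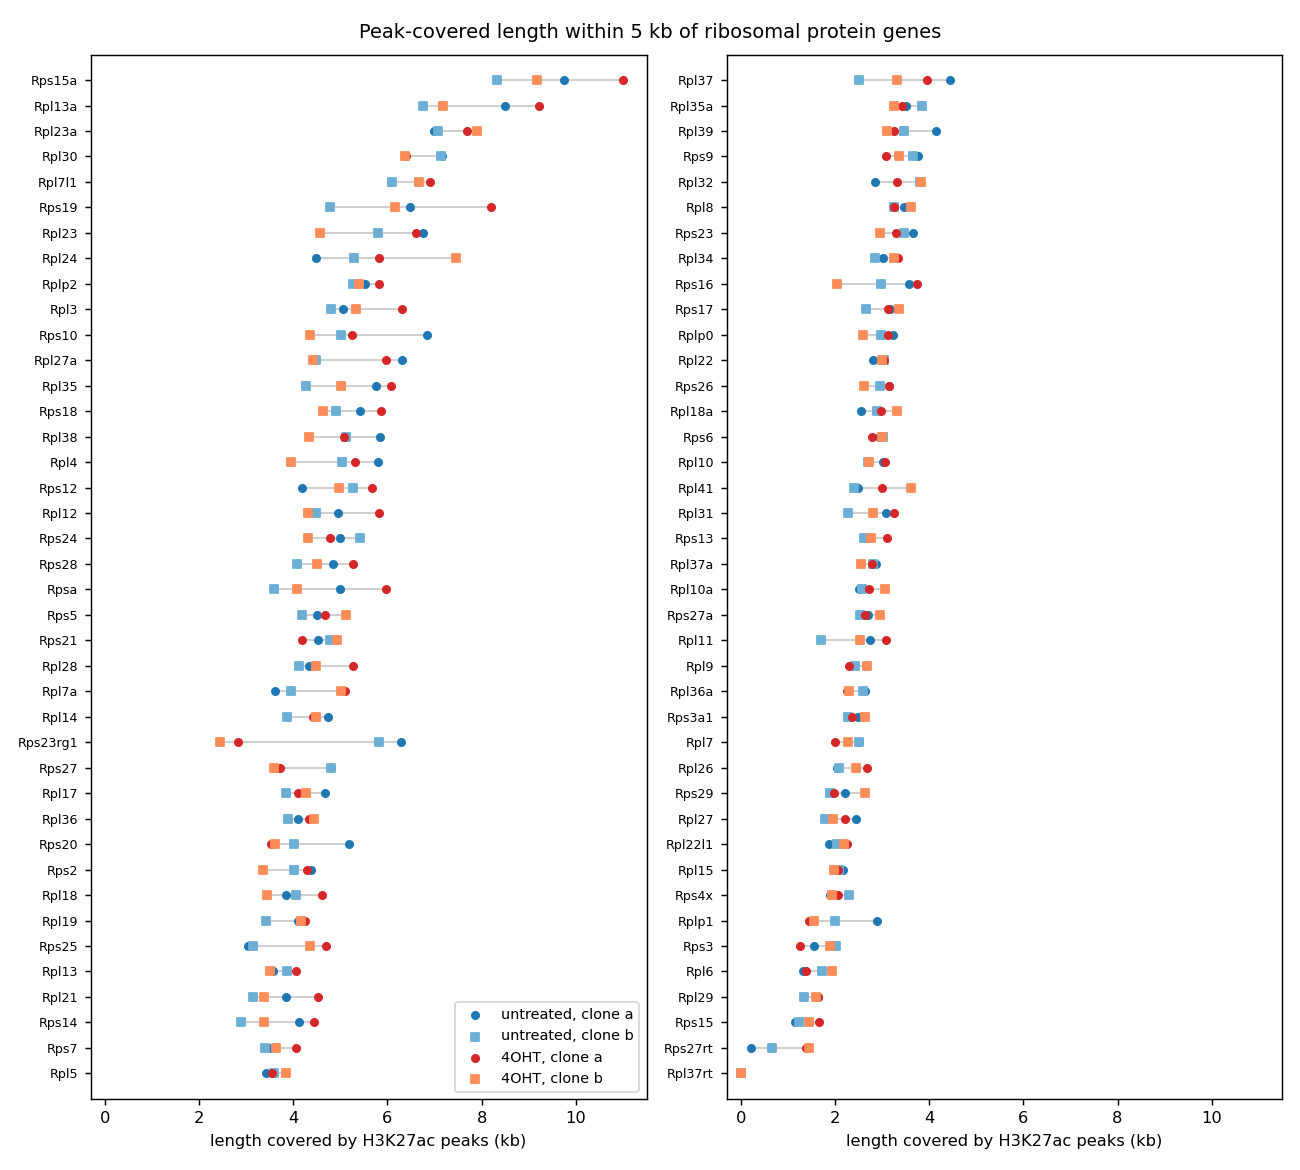
Length in kb covered by H3K27ac peaks within 5 kb of 80 of the 82 genes, with 1 point per library (circles clone a, squares clone b; blue untreated, red and orange 4OHT) and a grey line over their range. Genes are ordered by mean length; in most rows the colours mix, Rps23rg1 has its blue points to the right, and Rpl37rt lies at 0.

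Large subunit genes covered a median of 26.1% of their window. Rpl13a stood highest among them, with 8486, 6754, 9215 and 7174 bp in untreated a, untreated b, 4OHT a and 4OHT b, or 59.98% of its window. Rpl23a, whose protein lies at the mouth of the exit tunnel, had 6979, 7075, 7695 and 7910 bp (58.6%), and Rpl30 had 7167, 7126, 6395 and 6379 bp (53.0%). In Rpl13a the libraries of clone a exceeded those of clone b under either treatment, while in Rpl23a and Rpl30 the groups did not overlap, higher after 4OHT in the first and lower in the second. Rpl3, whose protein reaches towards the site of peptide bond formation, had 5056, 4805, 6307 and 5339 bp (34.4%), with both 4OHT values above the untreated ones. The lowest were Rpl6 with 1332, 1732, 1381 and 1932 bp (10.8%) and Rpl29 with 1648, 1338, 1638 and 1597 bp (12.3%). In these 2 genes the treatments overlapped.

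Small subunit genes covered a median of 28.8%. Rps15a had 9743, 8317, 11007 and 9177 bp (43.9%), the longest covered length of all members in each library, with the treatments overlapping. Rpsa, the gene also named for a laminin receptor, had 5003, 3596, 5976 and 4087 bp. Rps2, near the entry of mRNA, had 4375, 4015, 4287 and 3353 bp. Rps19, a gene mutated in Diamond-Blackfan anaemia, had 6471, 4774, 8192 and 6162 bp, and Rps14, a gene of the small subunit platform, had 4125, 2884, 4447 and 3389 bp. In Rpsa, Rps19 and Rps14 clone a was longer than clone b under either treatment. Rps6, whose protein is phosphorylated by S6 kinases, had 2942, 3023, 2796 and 2994 bp, and Rps27a, which is made as a fusion with ubiquitin, had 2704, 2534, 2632 and 2963 bp. In those 2 genes the treatments overlapped. Rps3, at the mRNA entry channel, had 1548, 2015, 1250 and 1902 bp (10.6%) and Rps15, near the decoding centre, 1159, 1249, 1664 and 1442 bp (11.8%). Both lay at the low end, and only Rps15 had its 4OHT values above the untreated ones.

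The stalk genes, whose acidic proteins recruit translation factors to the large subunit, differed among themselves. Rplp2 had 5524, 5266, 5831 and 5389 bp, Rplp0 had 3228, 2984, 3132 and 2607 bp, and Rplp1 had 2900, 2008, 1449 and 1565 bp. Within 1 kb, Rplp0 kept 1201, 1230, 1159 and 1176 bp, and the rest lay towards its neighbours Pxn and Gcn1. Of the like genes, Rpl7l1 had 6075, 6105, 6905 and 6663 bp and Rpl22l1 1873, 2036, 2263 and 2201 bp. Both 4OHT values exceeded both untreated ones in each gene, with adjusted p values of 0.539 and 0.534 in limma. The 4 genes on the X chromosome, Rpl10, Rpl36a, Rpl39 and Rps4x, covered a median of 21.6% of their window.

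The score of a peak is the authors' own value, and it was used only to rank peaks within a list. The median percentile of the top peak within 5 kb was 96.8 and 97.7 in untreated a and b and 97.6 and 98.0 in 4OHT a and b. Over all genes with a peak in all 4 libraries it was 83.6, 85.5, 86.4 and 87.2. The top peak was above the 90th percentile of its list in all 4 libraries at 66 of 81 genes (81.5%), against 25.9% of genes with a peak in all 4. It was above the 95th percentile at 51 (63.0%), against 12.3%. Rpl19 ranked highest, at percentiles 99.9, 99.8, 99.6 and 99.9, followed by Rpl4, Rpl11, Rps14 and Rps27. Rpl4, whose protein lines the exit tunnel, was at 99.5, 99.5, 99.4 and 99.7 and is the host of 5 small nucleolar RNA genes. Rpl11, which also binds Mdm2, was at 99.2, 99.5, 99.8 and 99.5. In all, 30 members held 59 small nucleolar RNA genes within their intervals.

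The remaining 15 genes fell below the 90th percentile in at least 1 library. They included 2 of the 3 stalk genes and 3 of the 4 X-linked genes. Of the 4 retrogene or like genes with peaks, only 1 was above the 90th percentile in all 4 libraries. The share among all X-linked genes was not computed. Rplp1 was at 79.7, 87.9, 80.9 and 79.2 and Rplp0 at 78.1, 86.5, 88.4 and 91.9, whereas Rplp2 was at 97.3, 97.8, 99.5 and 99.6. The 91.9 of Rplp0 in 4OHT b belonged to a peak beyond the gene, at 5353 to 6484 bp. The peak just downstream of its start was at 86.6 in that library. Rpl36a on the X chromosome was at 86.9, 86.8, 75.7 and 87.0, Rps4x at 83.9, 94.2, 90.5 and 88.9, and Rpl39 at 87.7, 90.7, 87.0 and 87.0. Rpl10, the fourth X-linked gene, stayed above, at 93.1, 95.3, 90.9 and 93.0. Rpl8, near the site of peptide bond formation, was at 82.5, 91.0, 76.5 and 96.1, with both clone b values above both clone a values. Its 82.5 in untreated a belonged to a peak at -6258 to -2836 bp, and the peak over its lower end was at 80.6 there. Rps27rt, counted through the peaks of Osbpl10, was lowest at 22.2, 22.7, 56.6 and 69.8. Lists of different length rank differently, so no change with treatment is read from percentiles.

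**Figure D2:**
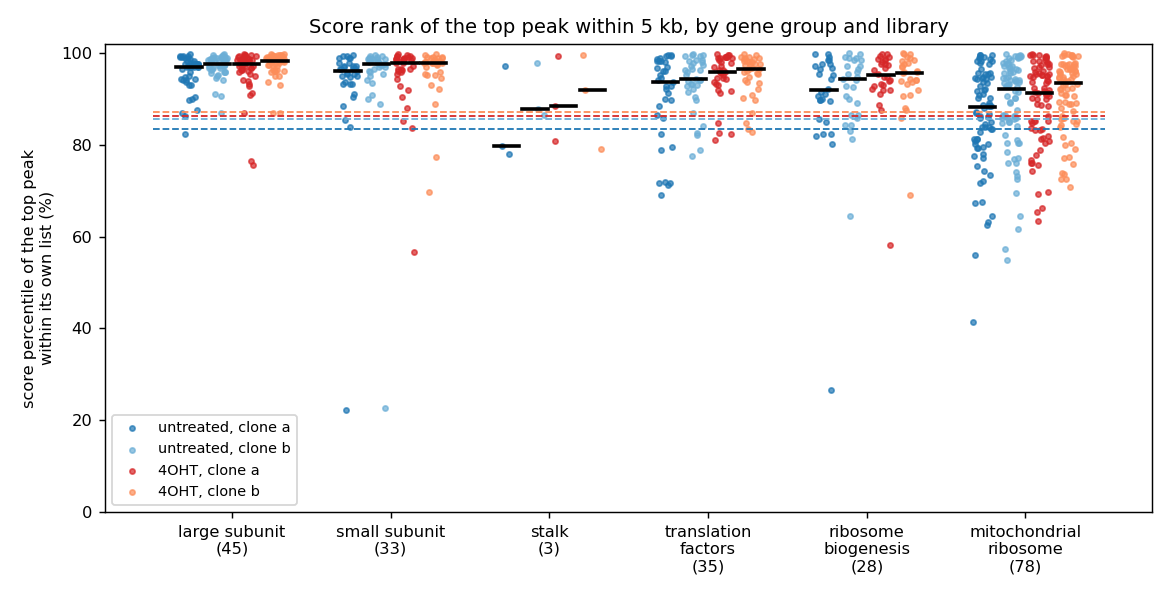
Percentile of the top peak within its own list for large subunit, small subunit and stalk genes and for translation factors, ribosome biogenesis and mitochondrial ribosomal genes, with 1 point per gene and library, black bars at medians and dashed lines at the median of all genes with a peak in all 4 libraries. Large and small subunit medians lie above the dashed lines, and 2 stalk genes lie near them.

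Around the annotated start, peaks reached further into the gene than away from it. Among 61 members with a start and a peak, the median length covered in the 2 kb downstream was 1680, 1740, 1780 and 1860 bp in untreated a, untreated b, 4OHT a and 4OHT b, against 860, 820, 900 and 840 bp in the 2 kb upstream. More was covered downstream in 54, 55, 51 and 56 of the 61 genes. Over 10496 genes with a start and a peak in all 4 libraries, the downstream medians were 620, 640, 700 and 740 bp and the upstream medians 380, 360, 440 and 420 bp. Coverage was highest, at 98.4% of member starts, from between 100 and 160 bp downstream, and Rps27rt was the gene without it. At -100 bp it was 57.4% and 52.5% in untreated a and b and 65.6% and 55.7% in 4OHT a and b. Over those 10496 genes the same position was covered at 34.4%, 34.1%, 43.0% and 38.4%. Their highest coverage at any position was 71.2%, 74.1%, 76.7% and 76.6%.

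The start base itself lay in a peak at 45, 50, 49 and 49 members, and in all 4 libraries at 43. Per library these were 73.8%, 82.0%, 80.3% and 80.3% of the 61 members with a start and a peak. Over the 10496 genes the shares were 42.4%, 44.6%, 56.4% and 51.3%. At 7 members the start base lay in no peak of any library: Rpl37rt and Rps27rt, and Rpl10, Rpl27, Rpl31, Rplp0 and Rps4x. In these last 5 the nearest peak began just downstream every time. The gap was 61, 65, 48 and 73 bp at Rpl10, whose protein joins the large subunit late, and 97, 101, 142 and 79 bp at Rpl27. It was 50, 11, 4 and 34 bp at Rpl31, 62, 31, 47 and 38 bp at Rplp0, and 35, 56, 46 and 46 bp at Rps4x. The edge thus fell within 142 bp of the start at these genes in each of the 4 libraries.

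**Figure D3:**
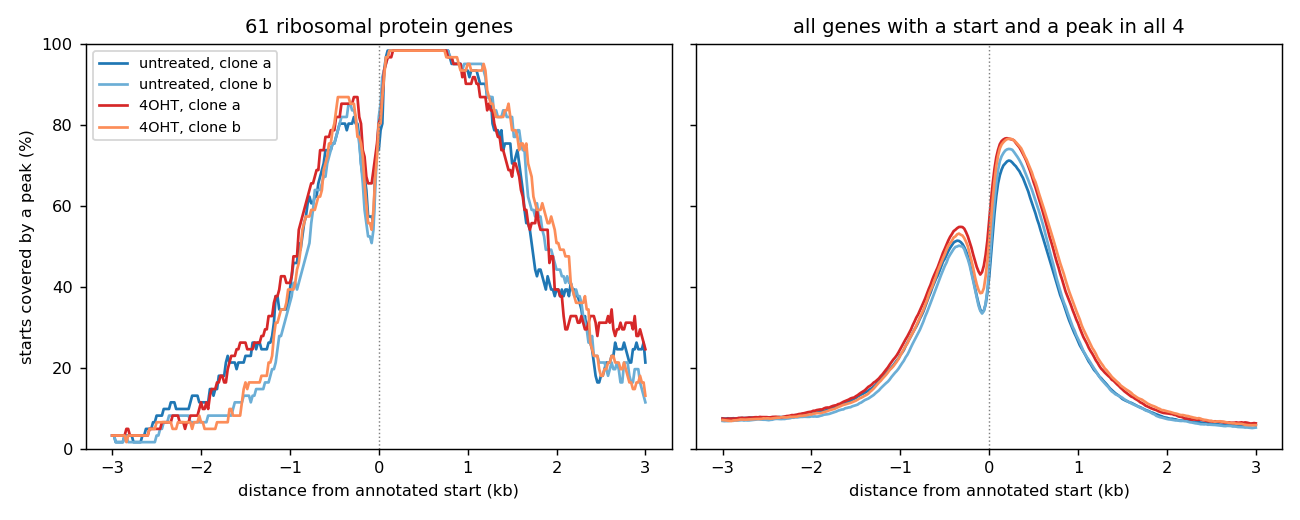
Percentage of annotated starts covered by a peak at each distance from the start (kb, positive into the gene) for 61 ribosomal protein genes (left) and all 10496 genes with a start and a peak in all 4 libraries (right), with 1 line per library. Both panels dip just upstream of the start, and the left panel reaches 98.4% downstream.

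The comparison of 4OHT with untreated cells asked whether the marked stretches at these genes changed after 2 h. Most stayed near their untreated length: on the log2(bp + 500) scale, covered length differed by a factor within 25% at 72 of 81 genes (88.9%), against 61.8% of the 13031 genes tested. Members were covered over more sequence, a median mean of 3656.5 bp against 2102 bp at genes with a peak in all 4 libraries. The share at genes of like covered length was not computed. The median log2 change on that scale was 0.06 for members and 0.10 for all genes tested, and the median size of the change regardless of sign was 0.14 against 0.23. In limma without a clone term, no member was higher and 1 was lower (Rps23rg1), while 2.69% of all genes were called higher and 1.8% lower. None of the 77 members without a retrogene or like symbol was called in that fit. At an unadjusted p of 0.05, 6 of 81 members passed, against 22.5% of all genes tested. With the clone as a replicate block, 3 members were higher and 1 lower, against 12.4% and 8.43% of all genes. The groups did not overlap at 20 members that were higher (24.7%) and 15 that were lower (18.5%), against 36.7% and 17.1% of all genes. In both clones 35 members were longer and in both 25 were shorter after 4OHT, and in 21 the clones moved in opposite directions (49.6% and 26% of all genes were longer or shorter in both). The X-linked genes had a median log2 change of -0.11, none called and 2 of 4 lower without overlap.

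**Figure D4:**
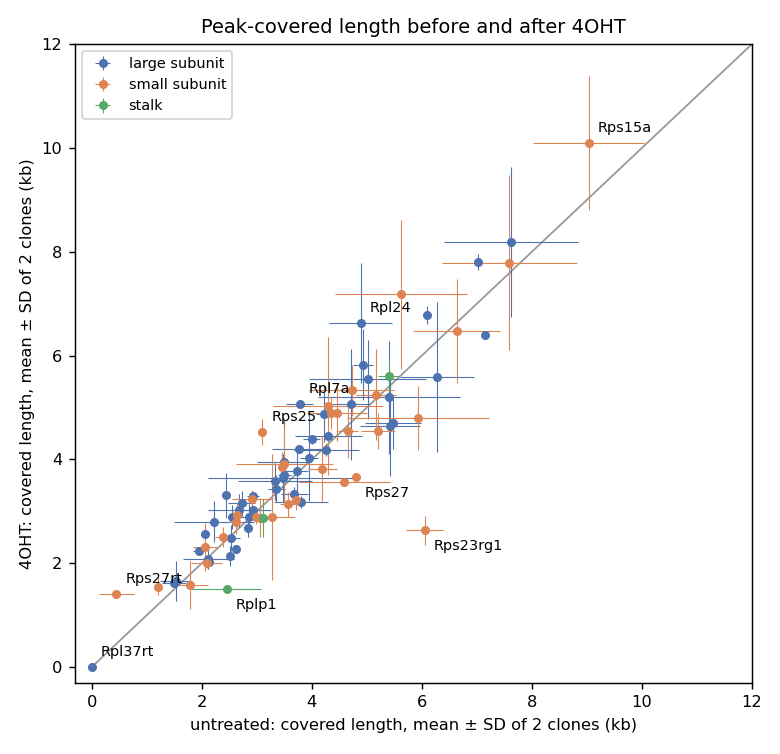
Mean covered length within 5 kb (kb) after 4OHT against untreated, with bars of 1 SD over the 2 clones in each direction and a grey line of equality, coloured by subunit. Most genes lie along the line, and Rps23rg1 lies below it by more than its bars.

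Rps23rg1 (chr8:3567998-3584776), a gene whose symbol marks it as a retrogene of the small subunit protein Rps23, lost marked sequence inside its interval. Peaks covered 6292 and 5811 bp in untreated a and b and 2837 and 2442 bp in 4OHT a and b, so the groups did not overlap. The log2 change was -1.06 ± 0.13 (SE), with an adjusted p of 0.0355 from limma and 0.00423 with the clone as a replicate block. A peak was present at its start in each list, at -992 to 804, -1358 to 795, -839 to 774 and -867 to 749 bp. That peak was 1797 and 2154 bp wide in untreated a and b and 1614 and 1617 bp in 4OHT a and b. Its percentiles were 95.6, 90.1, 83.8 and 77.3 in the same order, so it was narrower and ranked lower in both 4OHT lists. Whether its signal changed was not tested. The larger difference in covered length lay further within the gene. Untreated a had a peak of 3658 bp from 4915 to 8572 bp, and untreated b had peaks of 429, 695 and 1753 bp between 5001 and 8639 bp. There 4OHT a had peaks of 665 and 259 bp and 4OHT b a peak of 223 bp. Leaving out untreated a, untreated b, 4OHT a or 4OHT b gave adjusted p values of 0.165, 0.116, 0.19 and 0.204, with 1 library then standing for its group. The adjusted p was 0.0667 within 1 kb and 0.104 for the upper 50% of peaks by score.

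With the clone as a replicate block 3 members were also called higher. Rps25, a small subunit protein used by viral internal ribosome entry sites, was covered over 3044 and 3153 bp in untreated a and b and 4701 and 4348 bp in 4OHT a and b. Its log2 change was 0.48 ± 0.12 (SE), with an adjusted p of 0.11 without the clone and 0.0332 with it. Its top peak ran from -1175 to 1266 and -1142 to 1295 bp untreated, and from -1833 to 1245 and -1681 to 2101 bp after 4OHT, so its upstream edge lay further out in both clones. That stretch runs over the adjoining end of Trappc4 in all 4 libraries.

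Rpl24, which forms a bridge between the subunits, was covered over 4487, 5293, 5811 and 7445 bp. Both 4OHT values exceeded both untreated ones, and the log2 change was 0.40 ± 0.17 (SE), with an adjusted p of 0.272 without and 0.0407 with the clone. Its window also takes in peaks within Zbtb11, which begins where Rpl24 ends. Within 1 kb the covered length was 2474, 2796, 3568 and 4480 bp, in the same order of libraries. The third gene was Rps27rt, covered over 220, 670, 1379 and 1445 bp, with a log2 change of 1.06 ± 0.28 (SE) and adjusted p values of 0.121 without and 0.0288 with the clone. All of that lay at the lower end of Osbpl10, as described above. Its untreated mean is under the 500 bp that a gene's mean over the 4 libraries had to reach, so it was tested only through its 4OHT values.

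**Figure D5:**
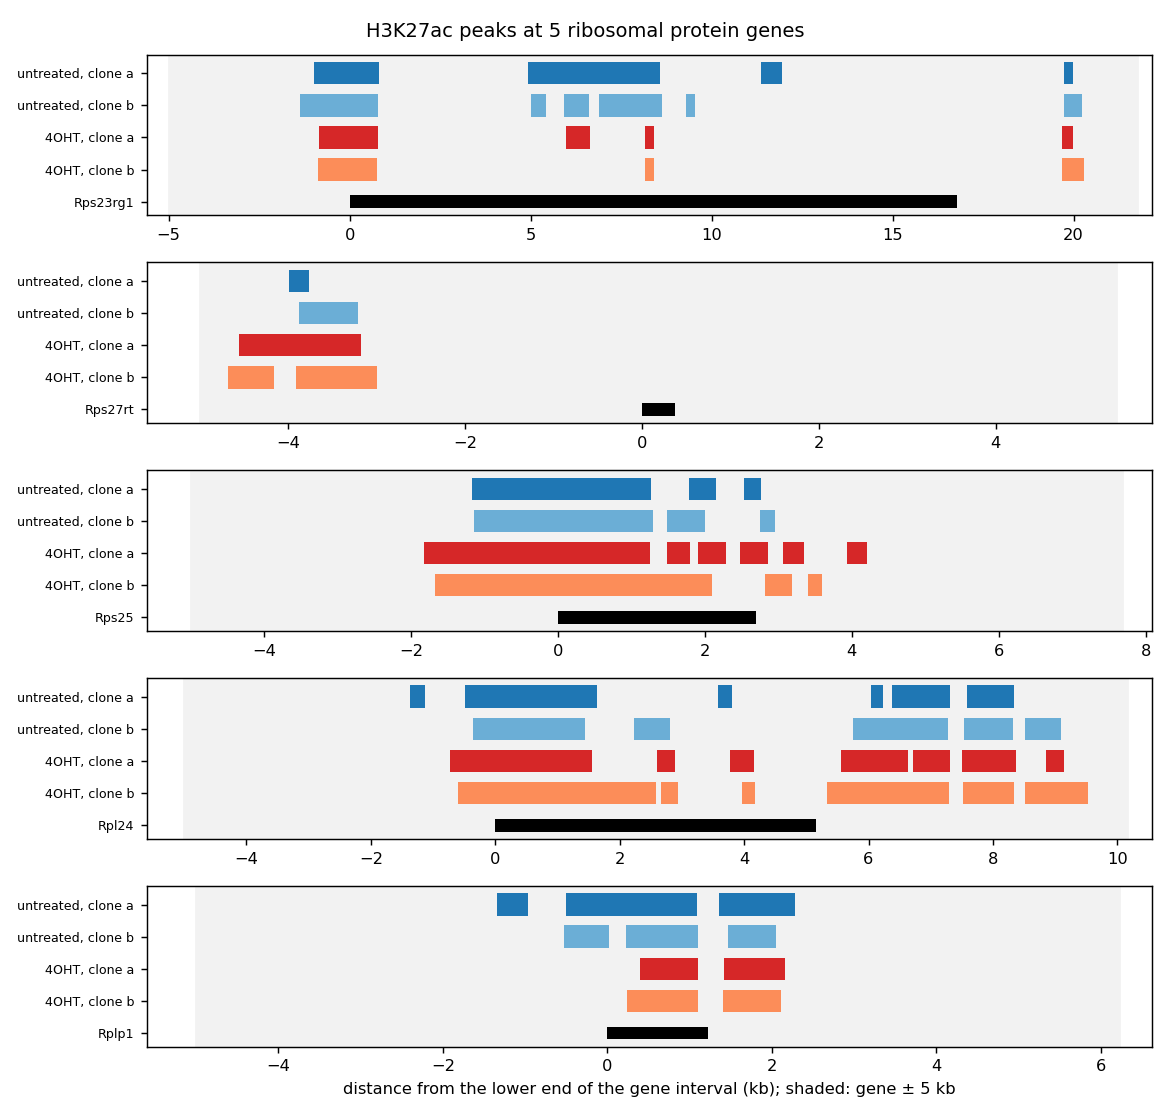
Peaks of each library as bars along Rps23rg1, Rps27rt, Rps25, Rpl24 and Rplp1, in kb from the lower end of each gene interval (black bar), with the window of 5 kb shaded. The bars between 5 and 9 kb in Rps23rg1 are longest in the untreated libraries, and Rps27rt has no bar over the gene.

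The other members with the largest changes did not pass in either fit. With the clone as a replicate block, limma gave adjusted p values of 0.0564 for Rpl7a, 0.0645 for Rps27 and 0.073 for Rplp1. They were 0.0973 for Rpl41, 0.123 for Rps10 and 0.148 for Rps20. Those given below are from limma without the clone. Rplp1 of the stalk, with the lengths given above, had a log2 change of -0.54 ± 0.19 (SE), adjusted p 0.194. Measured from the lower end of its interval, the untreated libraries had peaks at -508 to 1089 bp (clone a) and -529 to 18 bp (clone b). No 4OHT peak reached below 237 bp. The start of Rplp1 was not among those placed, so these positions are not read as upstream or downstream. Rps27 had 4799 and 4801 bp untreated and 3718 and 3598 bp after 4OHT, a log2 change of -0.35 ± 0.12 (SE), adjusted p 0.179. Within 1 kb the same gene had a change of 0.01, so the difference came from peaks further out. Rpl7a had 3607 and 3953 bp untreated and 5109 and 5023 bp after 4OHT (log2 change 0.38, adjusted p 0.168). Rpl41, the shortest ribosomal protein, had 2495 and 2406 against 3006 and 3615 bp (0.36, adjusted p 0.224). Rps20 had 5175 and 4013 against 3526 and 3618 bp (-0.31, adjusted p 0.335). Rps10 had 6845 and 5013 against 5241 and 4358 bp (-0.27, adjusted p 0.49), and here the treatments overlapped.

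The width of the top peak was called at no member. Median widths of members were 2169 and 2300 bp in untreated a and b and 2281 and 2223 bp in 4OHT a and b, against 1017, 983.5, 1158 and 1112 bp for all genes with a peak in all 4. No member and none of the 13044 genes tested (0%) passed limma, with or without the clone. At an unadjusted p of 0.05, 1 member (Rps25) and 1691 genes (13%) passed. Rps25 had widths of 2442 and 2438 bp untreated and 3079 and 3783 bp after 4OHT, with an adjusted p of 0.382. Widths did not overlap at 17 members that were wider and 14 that were narrower, against 32.6% and 12.8% of all genes, and the median log2 change was 0.04 against 0.13. Rps6, Rps2, Rpl3, Rps14, Rps19, Rps27a, Rpsa, Rplp0 and Rplp2 were called in neither measure.

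Members that held a motif could be set beside those that did not. The median log2 change of covered length was 0.07 in 24 members with CCGGAAG and 0.02 in 37 without, 0.14 in 11 with TCGCGAGA and 0.02 in 50 without, and 0.12 in 18 with ATGGCG and 0.01 in 43 without. It was 0.04 in 37 with a pyrimidine run within 10 bases of the start and 0.06 in 24 without. For a run at the start base itself it was -0.01 in 14 with and 0.07 in 47 without. The median over all genes tested was 0.10. These medians are a description, with no test.

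The lists of other translation genes had peaks as regularly. A peak in all 4 libraries was present at Fau and Rack1, which encode further proteins of the ribosome, and at 35 of 35 translation factors, 28 of 28 ribosome biogenesis genes and 78 of 78 mitochondrial ribosomal protein genes. The median share of the window covered was 9.93% for translation factors, 11.7% for biogenesis genes and 9.40% for mitochondrial ribosomal genes. These genes are longer than the members, with median lengths of 14989, 15383.5 and 7690.5 bp. In bp, their median mean covered lengths were 2905, 2753 and 1696.5 bp, against 3656.5 bp for the members. Fau had 4152, 4309, 4182 and 4176 bp and Rack1 3656, 3585, 3526 and 4326 bp in untreated a, untreated b, 4OHT a and 4OHT b. In limma without the clone none of these genes was called. At an unadjusted p of 0.05, 2 translation factors, 1 biogenesis gene and 11 mitochondrial ribosomal genes passed, of 35, 28 and 78, and neither Fau nor Rack1 did; the share over all genes tested was 22.5%, as above. With the clone as a replicate block, 1 translation factor and 2 biogenesis genes were higher, and 6 mitochondrial ribosomal genes were higher and 3 lower, beside 12.4% of all genes higher and 8.43% lower. Eif4a1, the helicase of cap-dependent initiation, had 6161 and 6349 bp untreated and 9364 and 7848 bp after 4OHT, with an adjusted p of 0.176 without and 0.0430 with the clone. Ubtf, which serves RNA polymerase I, had 9165 and 6587 against 11720 and 9216 bp, with 0.363 and 0.0286. Mrps6 of the mitochondrial small subunit had 5542 and 4604 against 2374 and 1387 bp, a log2 change of -1.25 ± 0.24 (SE), with 0.0661 and 0.00496. The log2 change was -0.02 at Fau and 0.10 at Rack1. The median was 0.14 for translation factors, 0.14 for biogenesis genes and 0.08 for mitochondrial ribosomal genes, against 0.10 for all genes tested.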

How the data were processed

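The data were peaks of 4 H3K27ac libraries; the 4 inputs were left out. Bowtie2, bedtools and MACS2 were used on mm10, per the submitters' processing notes. Nothing on versions, thresholds or the use of inputs is given in the sources used here. The authors deposited 1 peak list per library, with positions in bp and a score of no stated scale. Peaks within 5 kb of each of 21887 RefSeq gene intervals (GRCm38.p6) were collected with Python 3.11.15. Covered length was the number of bp under peaks, and the top peak that of highest score. Genes averaging 500 bp or more were fitted together with limma 3.58.1 (R 4.3.3, a variance prior depending on the mean) on log2(bp + 500), with Benjamini-Hochberg adjustment at 0.05 over all genes; log2 width was fitted likewise at genes with a peak in all 4 libraries. The scale understates changes of short lengths. The labels give each clone under both treatments, which pairs the libraries; as a check, clone a departed from its group's mean alike in untreated and 4OHT cells (correlation 0.521 over genes tested). Alternatives were other windows (1 and 10 kb), other pseudocounts (100 and 2000 bp), no length filter, scaling, the upper 50% of peaks, the clone as a replicate block and leaving out each library. Motifs were counted in the 300 bases around each RefSeq start, with the first listed start used for positions. The genes named were those called; those without a peak; the 5 at either end of mean covered length, of change and of percentile; and 13 always named. Members, lists and tests were chosen with earlier results of these data known. Rpl10, Rpl27, Rpl31, Rps4x, Rpl39 and the genes of printed promoters and of the other lists were named after their values or sequences were seen. Some genes that these rules name are not reported here.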

Additional observations from a re-analysis of the deposited data

How the results depend on the processing

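Of 203 alternative values of the reported results, 165 were rated the same. For the change of a single gene this means that its direction and side of the threshold were kept. For counts and medians it means that the value stayed close to the main one. The number of genes called in covered length, 586, was 330 within 1 kb, 302 with a pseudocount of 100 bp, 354 without the length filter, 108 for the upper 50% of peaks by score and 2721 with the clone as a replicate block. Leaving out any library gave 0 calls by limma, with between 1893 and 2428 genes at an unadjusted p of 0.05, and a lone library then assumed to vary like the others. The number of members called, 1, was 0 within 1 kb, 0 for the upper 50% by score, 4 with the clone as a replicate block and 0 without any library. The block changed no other call among the members named. With the upper 50% by score 1 member (Rps27rt) was gained. The members' median log2 change of covered length, 0.0577, was 0.0268 for the upper 50% by score and between 0.0016 and 0.1058 without a library. Their median log2 change of width, 0.0426, was 0.0532 for the widest peak, 0.0205 divided by each library's median width, and between 0.0063 and 0.0621 without a library. The changes of Rps27 within 1 kb (0.0102) and of Rps10 for the upper 50% by score (0.1626) reversed their sign; the cause was not tested. Read depth is unknown, peaks called per library shift with thresholds, and 2 clones per treatment limit what could be called.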

Other observations

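Covered length differed between the clones in a direction that recurred. Of the 81 members tested, 40 were longer in clone a than in clone b under both treatments and 11 were shorter, and the departure of clone a from the mean of its treatment correlated at 0.484 over members between untreated and 4OHT libraries. Over all genes tested, 38.8% were longer and 29.3% shorter in clone a under both treatments. Rps19, Rpsa, Rpl13a and Rps14 were among the members longer in clone a each time.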
